A study of Mus musculus with 6 samples.

Results

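Noncoding RNAs named for what they carry or for the gene they lie opposite were compared between early lesion (EL) and primary tumour (PT) mammospheres. They were taken by name from the RefSeq noncoding (NR_) rows of the 5 complete count tables: symbols ending in os, os1, os2, -as or -as1 (opposite strand or antisense), symbols starting with Snhg (small nucleolar RNA host gene), and Neat1, Malat1, Gas5, Mir22hg and Mir17hg. The rule found 153 transcript rows, which gave 134 symbols of the 24063 in the tables when the transcript with the highest mean count was kept for each. They comprised 12 snoRNA host genes (11 Snhg genes and Gas5), 2 nuclear body RNAs, 2 miRNA host genes and 118 symbols with an opposite-strand suffix, of which none ended in -as or -as1. In Minos1 and Dos the last letters are not a suffix: RefSeq lists them as the protein-coding genes Micos10 and Cbarp, which left 116 opposite-strand RNAs. RefSeq also lists Chd3os, Ppp1r3fos and Toporsos under other names (Rnf227, Flicr and Smim27). Of the 116, Toporsos and Crxos are annotated as protein-coding in RefSeq and GENCODE, and Chd3os in GENCODE, and all 3 were kept as the rule has them.

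Spheres were grown from MMTV-HER2/Neu mice on the FvB background, and both groups carry this transgene, a Neu (ErbB2) oncogene under a viral promoter (MMTV) that acts mainly in mammary epithelium. EL spheres came from mice aged 14 to 18 weeks with no palpable tumor, and PT spheres from mice older than 20 weeks with primary tumor(s), labelled breast tumor, so age and stage cannot be told apart. Digested tissue was cultured for 7 days on low-adhesion plates, and polyadenylated RNA was sequenced. Each group had 3 libraries, and nothing in the labels says that they came from separate animals, so p-values measure only the spread between libraries, which may be technical. The table of EL replicate 1 breaks off after 27664 of 33068 rows and holds none of the 4366 NR_ rows, so no member has a value there, and the groups compared were EL replicates 2 and 3 against PT replicates 1, 2 and 3. The EL samples carry the tissue label "mammary lung", but of 8 lung epithelial genes Sftpa1, Scgb1a1, Scgb3a2 and Nkx2-1 had 0 counts in all 5 libraries. Sftpb had at most 1 count in a library, Sftpc at most 11, and Ager 43 to 84. Sftpd, a surfactant protein gene, had 8.04 and 8.51 CPM (counts corrected for library depth) in EL and 68.1, 73.2 and 67.4 CPM in PT, and so was higher in the spheres without the lung label.

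Small nucleolar RNAs (snoRNAs) guide the chemical modification of ribosomal RNA, and most in mammals are cut from introns of host genes. The spliced host RNA is exported and, in several hosts, degraded when ribosomes meet its early stop codons, and many hosts start with a pyrimidine tract like those of ribosomal protein genes. The long isoform of Neat1 is the scaffold of paraspeckles, and Malat1 is an RNA of nuclear speckles. An opposite-strand RNA is read from the other DNA strand near or across a coding gene, its sense partner.

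Some snoRNAs that GENCODE M21 places inside the host genes are printed first, because they are the products that the hosts are known for. Both box motifs of C/D snoRNAs, TGATGA within the first 20 bases and CTGA within the last 20, were found on the RNA strand in 18 of the 31 hosted snoRNAs (58.1%) and in 20.6% of all 1507 snoRNA genes. Capitals mark these boxes, and coordinates are those of GRCm38 (mm10).
Snord47 in Gas5, chr1:161038082-161038158, plus strand: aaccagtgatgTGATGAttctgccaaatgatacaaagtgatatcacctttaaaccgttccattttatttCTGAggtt
Snord80 in Gas5, chr1:161037601-161037681, plus strand: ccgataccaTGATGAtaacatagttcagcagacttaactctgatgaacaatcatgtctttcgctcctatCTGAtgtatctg
Snord50a in Snhg5, chr9:88521529-88521600, minus strand: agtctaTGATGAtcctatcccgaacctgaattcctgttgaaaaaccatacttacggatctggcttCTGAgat
Snord87 in Snhg6, chr1:9942463-9942549, minus strand: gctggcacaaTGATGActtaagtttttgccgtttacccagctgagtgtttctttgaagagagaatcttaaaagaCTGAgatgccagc
Snord99 in Snhg12, chr4:132310691-132310764, plus strand: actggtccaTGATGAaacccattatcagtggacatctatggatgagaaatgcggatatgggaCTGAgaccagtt
Snord123 in Snhg18, chr15:32241853-32241923, minus strand: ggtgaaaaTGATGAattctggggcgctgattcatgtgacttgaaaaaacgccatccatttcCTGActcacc
By this annotation Gas5 holds 9 snoRNAs, Snhg1 holds 8, Snhg12 holds 4, and the other hosts with any hold 1 or 2.

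The start sites of the hosts are shown because a shared pyrimidine tract there is what the class is known for. Each window holds 50 bases, 20 before the RefSeq start and 30 from it, from the RefSeq table on GRCm38. Capitals mark the longest run of C and T, read on the transcript strand, that touches the start or begins within 4 bases after it.
Gas5, chr1:161035146-161035195, plus strand: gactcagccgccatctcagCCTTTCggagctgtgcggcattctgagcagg
Snhg1, chr19:8723467-8723516, plus strand: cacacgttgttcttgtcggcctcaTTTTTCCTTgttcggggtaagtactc
Snhg12, chr4:132308658-132308707, plus strand: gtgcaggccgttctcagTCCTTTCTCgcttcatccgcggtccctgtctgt
Snhg18, chr15:32244633-32244682, minus strand: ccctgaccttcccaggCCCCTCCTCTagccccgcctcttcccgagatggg
Snhg8, chr3:123508307-123508356, minus strand: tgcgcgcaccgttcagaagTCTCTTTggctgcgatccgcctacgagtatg
Snhg7, chr2:26640215-26640264, minus strand: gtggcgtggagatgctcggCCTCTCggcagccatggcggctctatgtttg
Snhg3, chr4:132353657-132353706, minus strand: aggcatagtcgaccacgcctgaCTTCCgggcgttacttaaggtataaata
Snhg5, chr9:88522868-88522917, minus strand: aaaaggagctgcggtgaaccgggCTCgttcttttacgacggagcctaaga
Snhg9, chr17:24719936-24719985, minus strand: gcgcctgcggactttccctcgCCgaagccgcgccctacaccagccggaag
Snhg10, chr12:105032250-105032299, minus strand: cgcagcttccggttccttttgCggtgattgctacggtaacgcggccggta
The run was 5 bases or longer in 7 of the 10 hosts with a start in the table (70%) and in 22.8% of 27025 genes. In Snhg5 the run at the annotated start was 3 bases, in Snhg9 2 bases and in Snhg10 1 base.

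Some mature miRNAs of Mir22hg, Mir17hg and Dnm3os are printed next, from the RefSeq table. The seed (bases 2 to 8) is in capitals, since it decides which messages a miRNA can pair with. GENCODE also places miRNAs in Dio3os, Snhg4 and Snhg10, and those are not printed.
miR-22-3p in Mir22hg, chr11:75463772-75463793: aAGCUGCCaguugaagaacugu
miR-17-5p in Mir17hg, chr14:115043684-115043706: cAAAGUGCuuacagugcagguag
miR-20a-5p in Mir17hg, chr14:115044183-115044205: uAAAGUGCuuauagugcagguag
miR-18a-5p in Mir17hg, chr14:115043867-115043889: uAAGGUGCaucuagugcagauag
miR-19a-3p in Mir17hg, chr14:115044048-115044070: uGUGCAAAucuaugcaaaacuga
miR-19b-3p in Mir17hg, chr14:115044358-115044380: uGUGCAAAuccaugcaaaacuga
miR-92a-3p in Mir17hg, chr14:115044476-115044496: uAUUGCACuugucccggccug
miR-199a-5p in Dnm3os, chr1:162217844-162217866: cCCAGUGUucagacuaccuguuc
miR-199a-3p in Dnm3os, chr1:162217883-162217904: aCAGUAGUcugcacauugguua
miR-214-3p in Dnm3os, chr1:162223438-162223459: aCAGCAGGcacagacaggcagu
The seed AAAGUGC is shared by miR-17-5p and miR-20a-5p, and GUGCAAA by miR-19a-3p and miR-19b-3p. All of these miRNAs lie on the plus strand. The libraries measured the polyadenylated host transcripts and not the mature small RNAs, so no level of a snoRNA or miRNA is given here.

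Total counts over all rows lay between 72808910 (EL replicate 2) and 85126630 (PT replicate 3). The members took 0.159% and 0.158% of the counts in EL and 0.314% to 0.315% in PT, with 1 row per symbol. Of the 134 members, 26 had 0 counts in all 5 libraries, which allows up to 3 counts or 0.0520 to 0.0731 CPM in a library, counting error only. A further 41 had 1 to 49 counts over the 5 libraries, and 67 had at least 50. Across genes, log2 CPM values correlated at 0.996 or more within a group, against 0.854 to 0.861 between the groups. With so little spread, 79.2% of the 15406 symbols tested were called by edgeR's quasi-likelihood test (Benjamini-Hochberg adjusted p under 0.05), 39% higher in PT and 40.2% lower.

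Against that background, 69 members passed the count filter, and 25 were higher in PT, 29 lower and 15 not called, a share of 78.3%, near that of all genes. The median log2 fold change (PT minus EL) of these 69 was -0.01, beside 0.00 over all genes tested, and the values ran from -6.13 to 2.93. Scaling by library totals instead of TMM factors moves the median of all genes up by 0.24, and then 34 members were higher and 24 lower. At a minimum change of 2-fold, 7 members were higher and 13 lower, where 7.16% of all genes were higher and 17.1% lower. The groups did not overlap for 59 of the 69 members, and for 85.5% of all genes tested. The members therefore changed about as often as other genes, and the description turns on which of them changed and by how much.

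**Figure D1:**
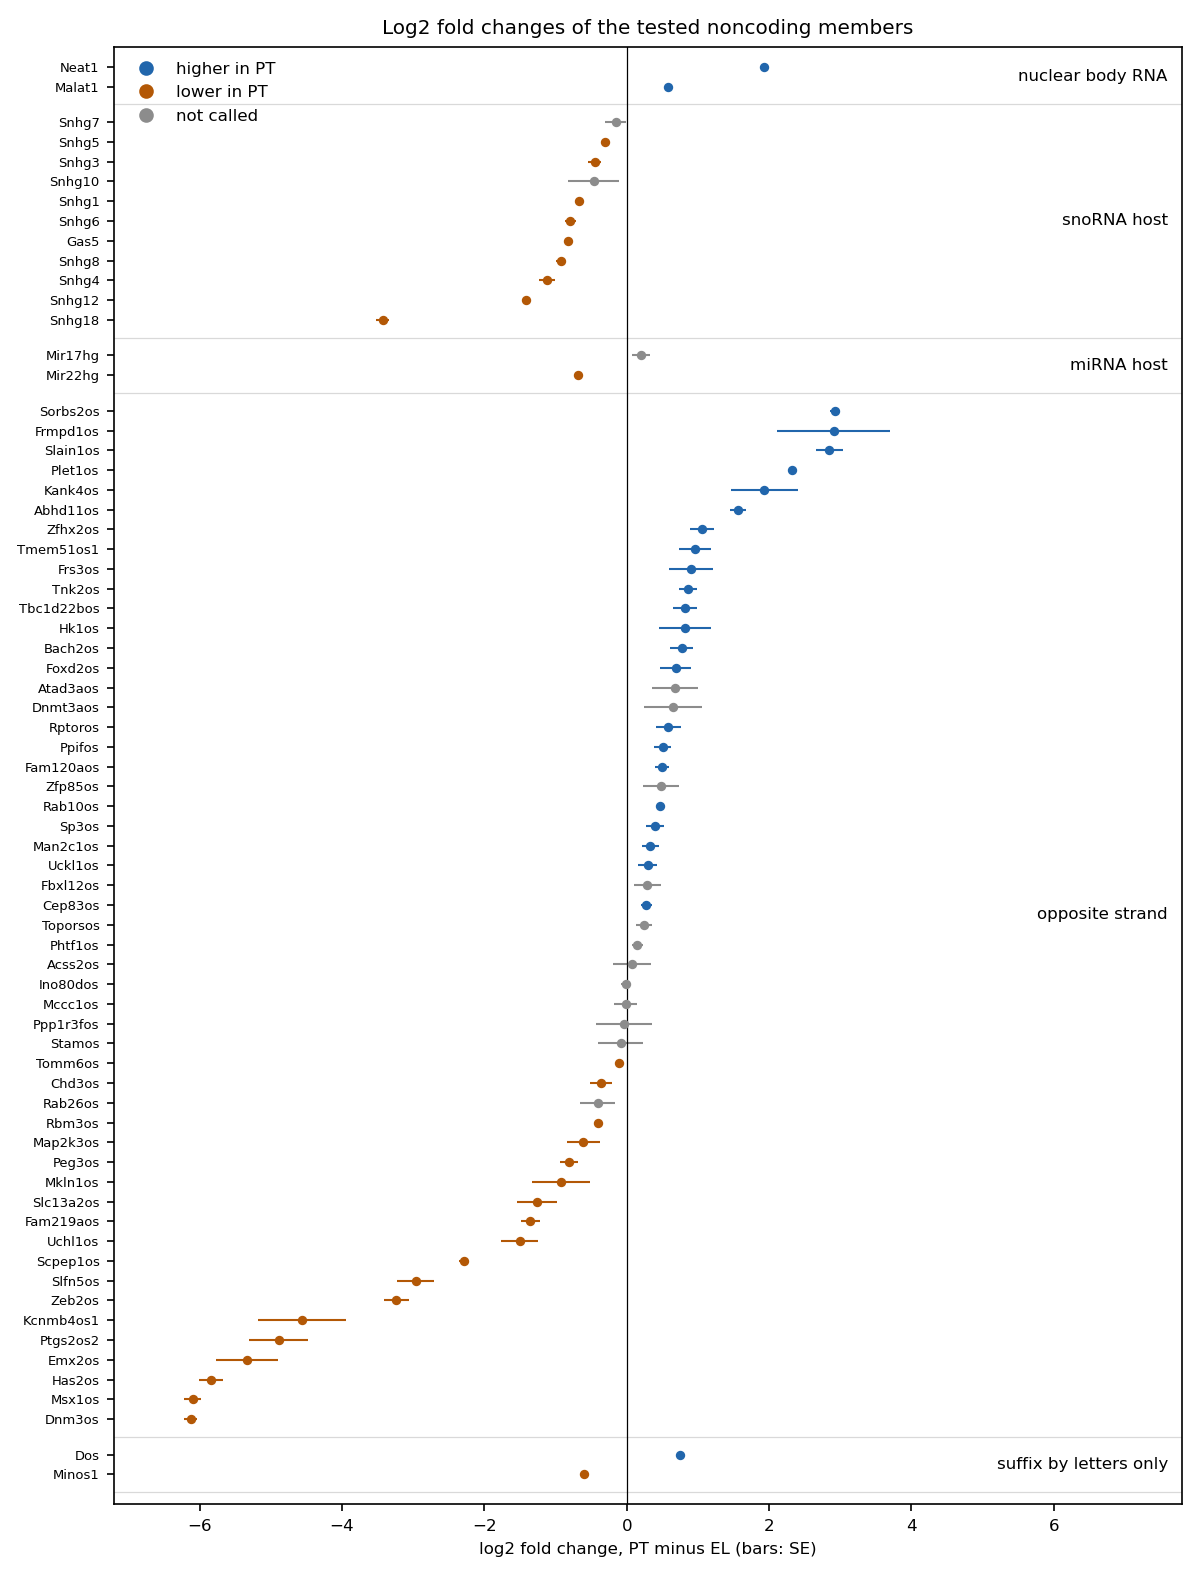
Log2 fold change of each tested member (PT minus EL) in edgeR's fit, with bars for the standard error, grouped by role. Points of snoRNA hosts lie at or below -0.16, the 2 nuclear body RNAs lie at 1.93 and 0.58, and the opposite-strand RNAs run from -6.13 to 2.93.

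Bulk libraries cannot tell fewer cells of a type from less RNA per cell, and markers of several cell types differed between the groups. Each of 8 fibroblast markers fell in PT (median log2 fold change -6.58), and their summed level was 60260 and 62710 CPM in EL against 598, 643 and 714 CPM in PT. All 8 endothelial markers were lower too, from 232 and 240 CPM in sum to between 5.37 and 5.72 CPM. Of 8 mammary epithelial markers, 7 were higher, with sums of 2092 and 2074 CPM in EL and 6749 to 6946 CPM in PT, while the basal keratin gene Krt5 fell from 45.4 and 50.7 CPM to between 0.108 and 0.156 CPM. Of 7 macrophage markers, 6 were higher, with sums of 81.9 and 88.8 CPM in EL and 164 to 188 CPM in PT. No defining fibroblast, endothelial, macrophage or mammary epithelial marker was at 0 in all libraries. The part of these differences in any result given here was not tested.

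Neat1, whose long isoform builds paraspeckles, had the highest CPM per length in both groups among members with an annotated transcript, and it rose in PT. These are levels in polyadenylated RNA, and how fully that selection captured Neat1 and Malat1 was not tested. The level of Neat1 was 332 and 335 CPM in EL and 1237, 1299 and 1272 CPM in PT. The libraries of each group lay close together and the groups did not overlap. The log2 fold change was 1.93 (SE 0.03), a 3.81-fold higher level (edgeR adjusted p 1.77e-24). The row counted is a transcript of 3004 bases on chr19:5824708-5845480, minus strand, whose annotated gene also spans the long isoform that builds paraspeckles, and the 2 forms were not counted apart here.

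Malat1, a nuclear speckle RNA that lies next to Neat1 on chr19:5795690-5802672, rose less. It measured 598 and 570.4 CPM in EL and 904, 848 and 869 CPM in PT, again without overlap. The log2 fold change was 0.58 (SE 0.03; edgeR adjusted p 7.35e-14). In GENCODE 7.72% of the exonic bases of Malat1 also belong to exons of other genes, and 6.49% to exons on the opposite strand. Exons of Neat1 also meet those of other genes, by a share not given here. Per kilobase of transcript, Neat1 stood at 111 CPM in EL and 422 CPM in PT, and Malat1 at 83.7 and 125 CPM. Together they made up 53.2% and 51.9% of all member counts in EL and 72.7% to 73.0% in PT. RNAs of genes for paraspeckle and nuclear speckle proteins moved far less than the counted Neat1 row, and protein was not measured. Of 18 in the list, 9 were higher, 4 lower and 5 not called, with a median of 0.08, and none passed 2-fold (15 higher and none lower with library totals, median 0.32). Nono, which encodes a core paraspeckle protein, rose from 275 ± 2.12 to 371 ± 7.33 CPM (mean ± SD, n = 2 and 3). Hnrnph3 rose from 21.6 ± 0.13 to 30.3 ± 0.59 CPM.

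The snoRNA host genes leaned to lower levels in PT. Of the 11 tested, 9 were lower, 2 were not called and none was higher by edgeR or DESeq2, all 11 log2 fold changes being below 0, while 40.2% of all genes were lower. Their median log2 fold change was -0.79, beside 0.00 over all genes, and the summed level of the 12 hosts was 295 and 304 CPM in EL and 160.2, 157 and 161 CPM in PT. Scaling by library totals left 8 lower and none higher, with a median of -0.56. At a minimum change of 2-fold, 2 of the 11 were called lower, beside 17.1% of all genes.

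Gas5, the most abundant host, accumulates in arrested cells and carries snoRNAs of the C/D class, among them Snord47 and Snord80 printed above. It measured 132 and 137 CPM in EL and 74.1, 75.2 and 77.5 CPM in PT. No PT library reached an EL library, and the log2 fold change was -0.83 (SE 0.03; edgeR adjusted p 2.7e-17).

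Snhg18, which hosts Snord123, fell furthest of the hosts. Its level was 24.98 and 27.9 CPM in EL against 2.79, 2.17 and 2.43 CPM in PT. That is a log2 fold change of -3.43 (SE 0.09), or a 10.7-fold lower level (edgeR adjusted p 7.21e-21). Both EL libraries lay far above the PT libraries.

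Snhg12 followed. It hosts Snord99 and 3 H/ACA snoRNAs and measured 33.0 and 34.1 CPM in EL and 13.01, 12.5 and 12.3 CPM in PT, a log2 fold change of -1.41 (SE 0.05; edgeR adjusted p 2.07e-17). Snhg4 measured 6.19 and 6.69 CPM in EL and 3.07, 2.93 and 2.88 CPM in PT (-1.12, SE 0.11). Snhg8, host of Snora24, measured 17.9 and 16.9 CPM in EL and 9.05, 8.62 and 9.72 CPM in PT (-0.93, SE 0.07). In all 3 genes each EL library stood above each PT library.

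Snhg6, host of Snord87, measured 13.01 and 13.5 CPM in EL and 7.48, 7.72 and 7.69 CPM in PT (log2 fold change -0.79, SE 0.08). Snhg1 measured 33.2 and 31.7 CPM in EL and 20.4, 19.7 and 20.8 CPM in PT (-0.68, SE 0.05). The smallest called falls were those of Snhg3 and Snhg5. Snhg3, host of Snora73a and Snora73b, measured 9.51 and 8.99 CPM in EL and 7.48, 6.41 and 6.46 CPM in PT (-0.45, SE 0.09). In GENCODE 83.3% of its exonic bases also belong to exons of other genes, and 71.5% to exons on the opposite strand. These genes are Gm17300 on the opposite strand and Rcc1 on its own, and their reads there cannot be told apart from those of Snhg3. Rcc1 itself fell by 0.71 on the log2 scale. Snhg3 is not the only lower host with exonic bases shared with other genes, and the shares of the others are not given here. Snhg5, host of Snord50a, measured 22.3 and 23.1 CPM in EL and 19.2, 18.8 and 17.2 CPM in PT (-0.30, SE 0.06), a call that ends with library totals (-0.07, edgeR adjusted p 0.308).

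The other 2 tested hosts were not called. Snhg7 measured 2.90 and 3.79 CPM in EL and 3.11, 2.67 and 3.22 CPM in PT, so the groups overlapped (-0.16, SE 0.15; edgeR adjusted p 0.328), and its sign turned with library totals and without EL replicate 3. Snhg10 stood near the count filter, with 0.390 and 0.556 CPM in EL and 0.264, 0.325 and 0.433 CPM in PT (-0.46, SE 0.36). Snhg9 did not pass the filter, with 7 and 9 counts in EL and 10, 8 and 6 in PT.

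**Figure D2:**
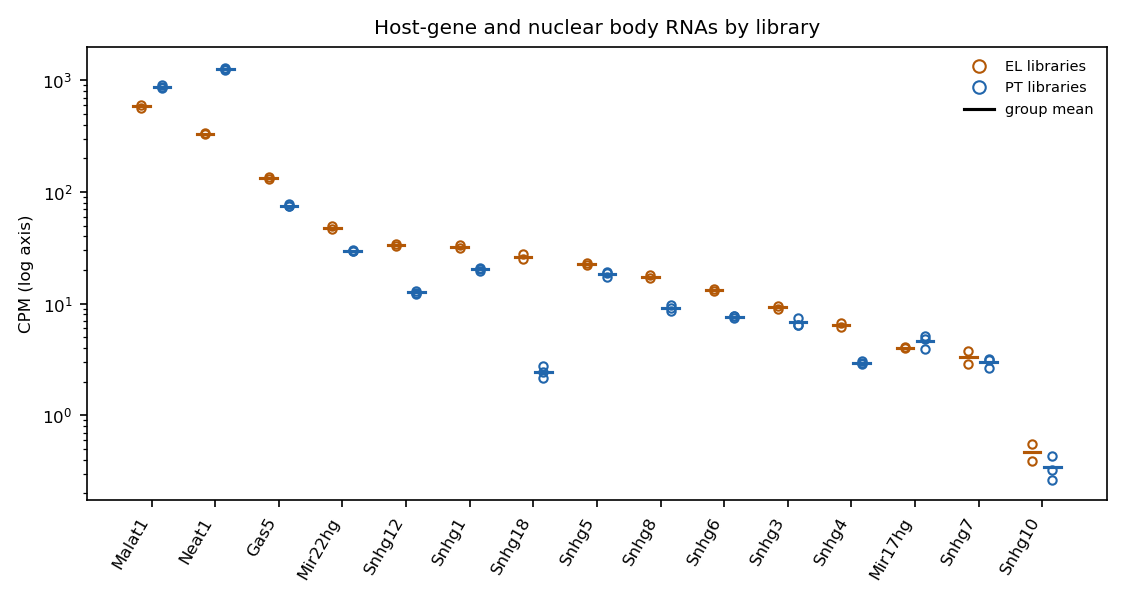
Level of each tested snoRNA host, nuclear body RNA and miRNA host in every library, in CPM on a log axis, with short lines for group means. Neat1 rises from 333 to 1269 CPM on average and Snhg18 drops from 26.4 to 2.46 CPM, while Mir17hg, Snhg7 and Snhg10 overlap between the groups.

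Genes of the machinery around the hosts changed little. Of 16 genes for snoRNP proteins and assembly factors, 5 were lower, 1 higher and 10 not called, with a median of -0.06. This lean is not stable to scaling, since library totals gave 9 higher and 1 lower. Nop56, a core box C/D protein, measured 66.4 ± 1.64 CPM in EL and 52.0 ± 0.48 CPM in PT (log2 fold change -0.35, SE 0.04), whereas fibrillarin (Fbl), the methyltransferase of the same particle, was not called (-0.06, SE 0.05). Of 15 factors of nonsense-mediated decay, the pathway that removes several host RNAs, 6 were higher and 2 lower, with a median of 0.05 (13 higher and none lower with library totals). Upf1, its helicase, rose by 0.23 in log2 terms (SE 0.03) and Smg6, its endonuclease, fell by 0.24 (SE 0.03).

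Of 17 translation genes known to start with a pyrimidine tract, as many hosts do, 11 were lower and 3 higher, with a median of -0.15 (6 lower and 9 higher with library totals, median 0.09). Eef1g, an elongation factor subunit, measured 424 ± 5.6 CPM in EL and 270.2 ± 2.11 CPM in PT (log2 fold change -0.65, SE 0.03), and Pabpc1, the cytoplasmic poly(A) binding protein, 1230 ± 13.5 and 866 ± 26.5 CPM (-0.51, SE 0.03). Among 9 regulators known for acting on snoRNA host or miR-17 cluster transcription, 8 were lower and Trp53 was higher (3 lower and 2 higher with library totals). E2f1, a cell cycle activator, measured 43.7 and 45.7 CPM in EL and 14.9, 16.3 and 15.1 CPM in PT (-1.53, SE 0.05). Myc measured 68.8 ± 1.58 CPM in EL and 56.2 ± 0.09 CPM in PT (-0.29, SE 0.04).

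Of the miRNA host genes, Mir22hg was lower in PT and Mir17hg was not called. Mir22hg, on chr11:75461539-75466690, carries miR-22. Its level was 46.2 and 49.1 CPM in EL and 29.4, 29.9 and 29.8 CPM in PT, without overlap (log2 fold change -0.68, SE 0.04; edgeR adjusted p 4.44e-13). Mir17hg carries the miR-17-92 cluster, a target of Myc and E2F factors that favours proliferation. It measured 4.07 and 4.01 CPM in EL and 3.94, 5.13 and 4.80 CPM in PT, so 1 PT library lay below both EL libraries (0.20, SE 0.13; edgeR adjusted p 0.157). Without that library, PT replicate 1, it was called higher (0.30, adjusted p 0.0315), as with library totals (0.43, adjusted p 0.00256). The RefSeq gene begins at position 115044390 of chromosome 14, after most of the miRNAs printed above, which lie within the longer GENCODE gene.

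Of 14 tested genes for miRNA processing proteins, 7 were higher and 4 lower (9 and 3 with library totals). Ago2, the slicing Argonaute, fell from 104 ± 2.07 to 63.5 ± 1.84 CPM (-0.71, SE 0.03). Ago1 rose from 108 ± 2.23 to 155 ± 4.16 CPM (0.52, SE 0.03), and Ago4 from 9.15 ± 0.09 to 17.3 ± 0.49 CPM (0.92, SE 0.07).

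The opposite-strand RNAs moved in both directions and held the largest changes of all members. Of 116, 52 were tested, and 22 were higher in PT, 18 lower and 12 not called (30 higher and 14 lower with library totals). The share called, 76.9%, was near the 79.2% of all genes, of which 39% were higher and 40.2% lower. Their median was 0.26, beside 0.00 over all genes. Their summed level was 376 and 379 CPM in EL and 510.2, 525 and 515 CPM in PT, in which Plet1os alone had 55.8 and 54.5 CPM in EL and 273, 281 and 273 CPM in PT. In GENCODE, 90 of the 116 overlap their partner on the other strand, 17 lie head to head with it, 6 lie tail to tail, and 3 could not be placed. The strand setting of the counting is not given in the sources used here, so where transcripts share exonic bases, reads of an opposite-strand RNA and of its partner cannot be told apart.

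Dnm3os showed the lowest log2 fold change of all tested members. It lies inside the dynamin gene Dnm3, on chr1:162217623-162225550, plus strand, and is the primary transcript of miR-199a-2 and miR-214, which are known from mesenchymal tissue. It measured 50.9 and 56.3 CPM in EL and 0.679, 0.669 and 0.936 CPM in PT. Both EL libraries stood far above all PT libraries, and the log2 fold change was -6.13 (SE 0.09), a 69.9-fold lower level (edgeR adjusted p 9.01e-26). Its transcript shares no exonic base with that of Dnm3, which measured 6.07 and 5.51 CPM in EL and 1.62, 2.10 and 1.89 CPM in PT (-1.63, SE 0.13). The fall of Dnm3os thus exceeded that of its partner by 4.50 on the log2 scale.

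Msx1os lies at the homeobox gene Msx1, on chr5:37820564-37822751. It measured 22.8 and 24.6 CPM in EL and 0.377, 0.253 and 0.399 CPM in PT (log2 fold change -6.10, SE 0.13; edgeR adjusted p 6.04e-23). Msx1 itself measured 36.8 and 39.9 CPM in EL and 0.566, 0.379 and 0.520 CPM in PT (-6.29, SE 0.10). The PT libraries of both genes lay far below the EL libraries, and the bases they share could not be determined.

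Has2os lies opposite Has2, which makes hyaluronan, a matrix polysaccharide. It measured 12.4 and 12.7 CPM in EL and 0.302, 0.235 and 0.121 CPM in PT (-5.84, SE 0.17; edgeR adjusted p 7.29e-20), beside -5.96 (SE 0.06) for Has2. Emx2os, opposite the homeobox gene Emx2, had 48 and 60 counts in EL and 1, 2 and 2 in PT (-5.33, SE 0.43), beside -5.93 (SE 0.19) for Emx2. Both share exonic bases with their partners, 182 and 264 respectively.

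Ptgs2os2 lies tail to tail with Ptgs2, the inducible cyclooxygenase, with no shared base and with 64917 bases between the 2 gene starts. It had 63 and 90 counts in EL and 1, 1 and 8 in PT (log2 fold change -4.89, SE 0.41; edgeR adjusted p 1.27e-10). Most of its PT counts came from replicate 3, and without that library the value was -6.46. Ptgs2 measured 125 and 135 CPM in EL and 102, 105 and 104 CPM in PT (-0.33, SE 0.03), so the difference between the pair, 4.56 on the log2 scale, was the widest of the 52.

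Zeb2os lies opposite Zeb2, a repressor of E-cadherin and a driver of mesenchymal state, and an antisense RNA there is known in human cells to alter splicing of the ZEB2 leader. It measured 5.58 and 6.14 CPM in EL and 0.452, 0.650 and 0.745 CPM in PT (-3.24, SE 0.17; edgeR adjusted p 1.8e-14), beside -3.95 (SE 0.04) for Zeb2. Slfn5os, opposite a Schlafen gene, had a log2 fold change of -2.97 (SE 0.26), beside -2.60 for Slfn5. Scpep1os, opposite a serine carboxypeptidase gene, measured 40.3 and 38.5 CPM in EL and 7.20, 8.56 and 8.40 CPM in PT (-2.29, SE 0.06), beside -2.30 for Scpep1. Uchl1os (-1.50, SE 0.26) and Fam219aos (-1.36, SE 0.14) also fell, with -1.56 for Uchl1, a ubiquitin hydrolase gene, and -1.36 for Fam219a. These 10 RNAs were higher in the EL libraries than in PT, although some were scarce in both groups. The fibroblast and endothelial markers were higher in EL too (median log2 fold changes of -6.58 and -6.56), and the part of those cells was not tested.

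Among RNAs higher in PT, Sorbs2os and Plet1os combined high levels with large changes. Sorbs2os, within Sorbs2, which encodes an adaptor of the actin cytoskeleton, measured 4.58 and 3.87 CPM in EL and 31.5, 32.9 and 32.1 CPM in PT. The groups stood far apart, with a log2 fold change of 2.93 (SE 0.07; edgeR adjusted p 4.21e-21), beside 3.13 (SE 0.04) for Sorbs2. Plet1os, opposite the epithelial surface protein gene Plet1 on chr9:50488799-50504805, was the most abundant opposite-strand RNA. Its log2 fold change was 2.32 (SE 0.03), a 5-fold higher level in PT (edgeR adjusted p 4.4e-26), and Plet1 rose from 149 and 148 CPM in EL to 748, 772 and 767 CPM in PT (2.36, SE 0.03).

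Slain1os, opposite a gene for a microtubule end protein, measured 0.658 and 0.459 CPM in EL and 3.996, 4.14 and 3.97 CPM in PT (2.85, SE 0.20; edgeR adjusted p 2.34e-12), beside 2.61 for Slain1. Abhd11os measured 2.44 and 2.66 CPM in EL and 7.35, 7.53 and 7.62 CPM in PT (1.56, SE 0.11), beside 1.09 for Abhd11, a mitochondrial hydrolase gene. Zfhx2os followed with 1.06 (SE 0.17), beside 0.77 for Zfhx2. With a mean count of at least 20, the remaining 5 of the 10 highest were Tmem51os1 (0.96), Frs3os (0.90), Tnk2os (0.86), Tbc1d22bos (0.82) and Hk1os (0.82). Of their partners, Tnk2, a tyrosine kinase gene, rose by 1.03, Tbc1d22b by 0.65 and Tmem51 by 0.59, while Frs3 (0.22) and the hexokinase gene Hk1 (0.03) were not called. Hk1os had 17 and 11 counts in EL, and its call ended without EL replicate 3, without PT replicate 2 and without PT replicate 3. That of Frs3os ended without EL replicate 3 (0.59, edgeR adjusted p 0.163). With DESeq2 the calls of Hk1os and Frs3os ended as well.

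**Figure D3:**
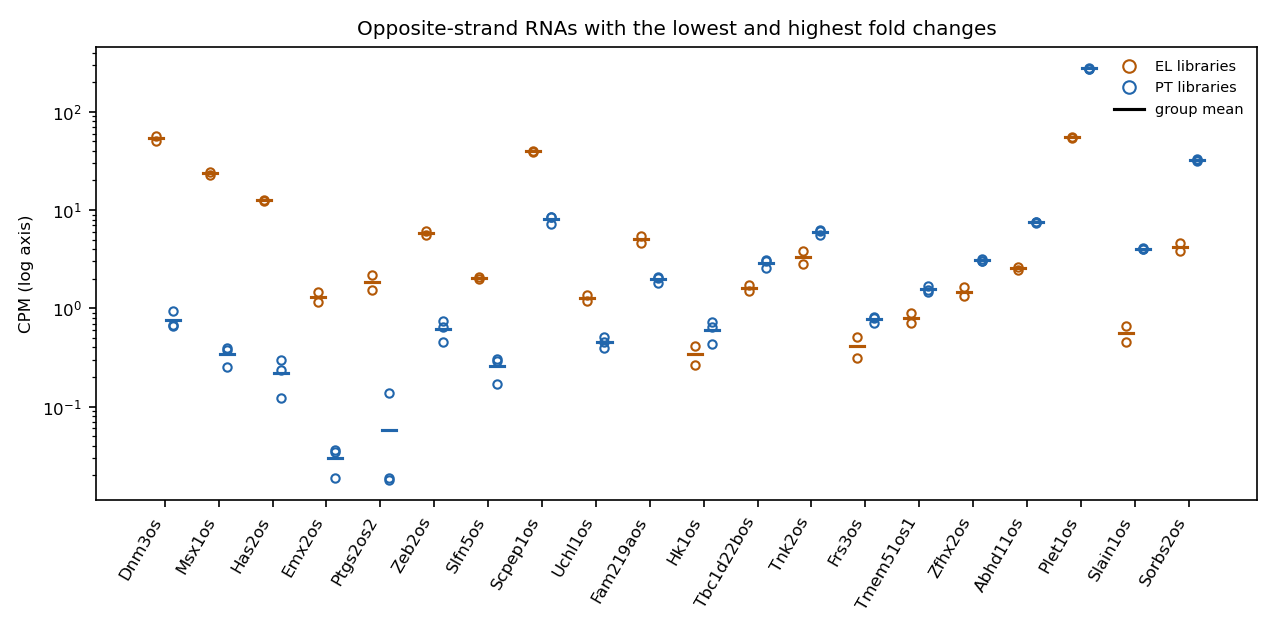
Level in every library, in CPM on a log axis, of the 10 opposite-strand RNAs with the lowest and the 10 with the highest log2 fold changes among those called, limited to those with non-overlapping groups and a mean count of 20 or more, ordered from lowest to highest. The gap narrows from 69.9-fold in Dnm3os to 1.76-fold in Hk1os before widening to 7.61-fold in Sorbs2os.

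A few rare opposite-strand RNAs differed on very few counts and are named after their values were seen. Kcnmb4os1, opposite a potassium channel subunit gene, had 40 counts in EL libraries against 3 in PT, a ratio of 26.9 after scaling (exact 95% interval 8.56 to 136, counting error only). Frmpd1os had 2 counts in EL libraries against 33 in PT, a ratio of 8.19 (2.09 to 70.4). Dio3os, which lies by the imprinted deiodinase gene Dio3, had 4 and 12 counts in EL and 1, 0 and 0 in PT. Hoxa11os had 16 and 2 counts in EL and 0 in each PT library, so the excess of both in EL rests mainly on 1 library. Atcayos had 0 in EL and 21 in PT, 3.47-fold higher if the 0 is set at 3 counts, with counting error in the 21 left out.

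Opposite-strand RNAs mostly moved in the direction of their partners. All 52 tested RNAs had a tested partner, and in 41 pairs the log2 fold changes had the same sign. Both genes were lower in 15 pairs and both higher in 16. In 6 pairs the opposite-strand RNA alone was called, in 5 the partner alone, and in 7 neither. The 3 pairs called in opposite directions were Mkln1os, Sp3os and Fam120aos with their partners. Mkln1os stood at -0.93 (SE 0.41) in log2 terms and Mkln1 at 0.15. The Mkln1os call ended without EL replicate 2, without PT replicate 1 or without PT replicate 2. It also ended with DESeq2 (adjusted p 0.143), library totals, upper-quartile factors, no count filter and a replicate block. Sp3os had 0.40 (SE 0.13) and Sp3 -0.26, and its call ended without EL replicate 3 (0.25, edgeR adjusted p 0.136). Fam120aos had 0.49 (SE 0.10) and Fam120a -0.25. The falls of Sp3 and Fam120a are about as large as the 0.24 by which library totals move the median of all genes. The opposite directions of these pairs may therefore not hold with that scaling.

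Pairs that share sequence were set beside pairs that do not, without a test of the difference. In the 31 pairs whose transcripts share exonic bases, 26 had the same sign, the median difference between the 2 log2 fold changes was 0.20, and the widest was 1.08. In the 16 pairs that share none, 11 had the same sign, the median difference was 0.47 and the widest 4.56. Across pairs, Pearson's r was 0.98 with shared bases and 0.74 without, given as a description with no test, since a pair with shared bases may count the same reads. If the partner's reads were spread evenly over its transcript and counted on either strand, they would make up a median of 44.7% of the counts of the opposite-strand RNA in the 31 pairs, from 5.02% for 1 pair to 177% for Zeb2os, and over 50% in 13 pairs. For Uchl1os the figure was 126%, for Scpep1os 52.2%, for Plet1os 42.6% and for Sorbs2os 42.4%. How far shared reads account for the likeness was not tested.

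**Figure D4:**
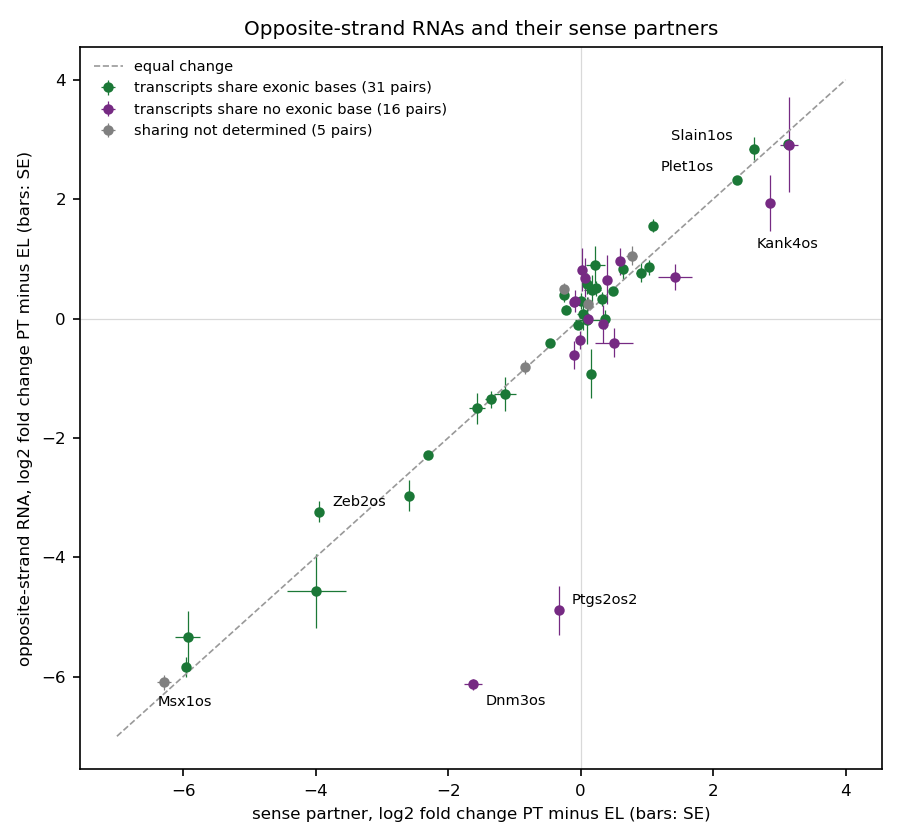
Log2 fold change (PT minus EL) of each tested opposite-strand RNA against that of its sense partner, with bars for standard errors and a dashed line of equal change. Pairs that share exonic bases lie along the line with a median difference of 0.20, while Dnm3os and Ptgs2os2, which share none, lie 4.50 and 4.56 below it.

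The 16 pairs without a shared base lack one between the 2 transcripts counted, but for Hk1os, Tmem51os1, Ino80dos and Dnmt3aos other isoforms of the partner cover 10.1%, 6.82%, 14.97% and 9.60% of the exonic bases. Of these 16 opposite-strand RNAs, Dnm3os, Ptgs2os2, Chd3os and Map2k3os were lower, and Hk1os, Cep83os, Tmem51os1, Foxd2os, Kank4os and Frmpd1os were higher. Kank4os, inside a gene for a cytoskeletal regulator, had 5 and 5 counts in EL and 29, 19 and 30 in PT (log2 fold change 1.93, SE 0.47; edgeR adjusted p 6.88e-04), beside 2.85 for Kank4. Foxd2os, head to head with a forkhead gene, had 35 and 48 counts in EL and 97, 90 and 83 in PT (0.69, SE 0.22), and its call ended without EL replicate 2 (0.49, adjusted p 0.0993). Chd3os had -0.36 (SE 0.15) and Map2k3os -0.61 (SE 0.23). Both calls ended without EL replicate 3 and without PT replicate 2, among other libraries, and also with DESeq2 and with library totals. Cep83os rose by 0.27 (SE 0.08) beside a Cep83 that was not called.

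Several other opposite-strand RNAs were called. Rab10os, with 21.9 ± 0.62 CPM in EL and 30.2 ± 0.09 CPM in PT, rose by 0.46, as did its partner Rab10, a trafficking GTPase gene (0.49). Rbm3os fell by 0.40 and Rbm3, a cold-shock RNA-binding protein gene, by 0.47, and Peg3os fell by 0.81 and the imprinted gene Peg3 by 0.85. Tomm6os had -0.10 and was barely called, and with library totals it was called higher at 0.14. Its call ended without EL replicate 2, without PT replicate 1 or without PT replicate 3. Slc13a2os had -1.26 (SE 0.28), with 73 and 39 counts in EL and 24, 31 and 39 in PT, and its call ended without EL replicate 2 (-0.74, edgeR adjusted p 0.0667). The calls of Man2c1os, Uckl1os and Rptoros, all higher by 0.30 to 0.59, also ended when EL replicate 3 was left out. Those of Man2c1os and Uckl1os ended without PT replicate 2 as well. With DESeq2 the calls of Man2c1os, Uckl1os and Tomm6os ended too. Of the 2 symbols with the letters alone, Minos1 was lower (-0.60, SE 0.04) and Dos higher (0.75, SE 0.05).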

How the data were processed

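RNA from 6 mammosphere libraries was sequenced on an Illumina MiSeq, and per the submitters' processing notes STAR, featureCounts and DESeq2 were used with the builds mm10 and hg19. For tool versions and the use of strand in counting, nothing is given in the sources used here. The authors deposited raw read counts per RefSeq transcript, whole numbers with no normalization. Each symbol was represented by its transcript of highest mean count (for members, among NR_ rows).

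The counts of the 5 complete libraries entered edgeR 4.0.16 under R 4.3.3 (filterByExpr with a minimum count of 10, TMM factors, quasi-likelihood test of PT against EL), with Benjamini-Hochberg adjustment over 15406 symbols and a threshold of 0.05. Values are CPM on TMM-scaled totals, SD is over 2 EL or 3 PT libraries, and SE belongs to the log2 fold change. The script was tested on simulated counts. Replicates of a group differed by more than sampling noise (chi-square per degree of freedom 3.15 to 6.87), so none was counted as a repeat.

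Members and lists were chosen with earlier results of these data known. Named genes are the 5 fixed names, every tested Snhg gene, the 10 highest and 10 lowest opposite-strand RNAs among those called with non-overlapping groups and a mean count of 20 or more, their partners, and up to 4 genes of each list with the smallest p. One list gene that this rule selects is not reported here. Other genes in the text were chosen after their values were seen. Partners are the symbol without its suffix. Positions, exons and sequences come from GENCODE M21 and RefSeq, both on GRCm38. The alternatives tried were factors by RLE or upper quartile, library totals, no filter, DESeq2 1.42.0, limma-voom (limma 3.58.1), a 2-fold minimum, all 6 libraries, a replicate block and each library left out.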

Additional observations from a re-analysis of the deposited data

How the results depend on the processing

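Of the counts of members, RLE factors, upper-quartile factors, library totals, no count filter, DESeq2 and limma-voom left each within 1.5 times its value, although with library totals 34 members were higher and 24 lower. A 2-fold minimum gave 7 higher and 13 lower members, 2 lower snoRNA hosts, and 6 higher and 11 lower symbols with an opposite-strand suffix. A choice made after seeing the data kept only genes with no exonic base shared with another gene in GENCODE. It left 4 higher and 11 lower members, and 4 higher and 5 lower with the suffix. Fewer genes then enter, and why the balance of higher and lower members moved was not tested. Leaving out 1 library in turn gave 19 to 26 higher and 26 to 28 lower members, 17 to 23 higher and 16 to 18 lower with the suffix, and 9 lower snoRNA hosts each time. Leaving out Minos1 and Dos, also chosen after seeing the data, gave 22 higher and 18 lower with the suffix. Of 1054 values of named genes under these settings, 990 kept their direction and side of the threshold, 53 lost the call (42 of them at the 2-fold minimum) and 7 gained it. The 4 that turned sign were Snhg7 with library totals (0.0811) and without EL replicate 3 (0.0516, in a range from -0.336 over the libraries left out), and Nolc1 (0.0281) and Nhp2 (0.0573) with library totals, and the cause was not tested. The fit of all 6 libraries holds no member, and the 40 partners and list genes in it kept their calls. Same-numbered replicates did not deviate together (r 0.01 and 0.00), and with a replicate block 27 members were higher, among them Mir17hg (0.297, adjusted p 0.0293), and 27 lower, 24 and 17 with the suffix, and 9 snoRNA hosts were lower. No snoRNA host was higher under any setting run. Depth limits the members near the count filter, where 41 had 1 to 49 counts.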
